A study of Homo sapiens with 6 samples.

Results

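The 10 receptor tyrosine kinases considered here were chosen for roles in glioblastoma: EGFR, ERBB2, ERBB3, PDGFRA, PDGFRB, MET, IGF1R, INSR, DDR1 and DDR2. They were listed by name, with no threshold on a measured value but with earlier results of these data known, and all 10 are among the 60612 genes of the table. Their RNA was measured by RNA sequencing in U87, an established human glioblastoma cell line, grown with 10% serum. The groups were 3 libraries of cells carrying a control shRNA (NC) and 3 libraries of cells carrying an shRNA against PRMT6 (shPRMT6), both delivered by lentivirus. PRMT6 is an arginine methyltransferase that modifies histones and other proteins. All 6 libraries came from a single cell line, the shRNA sequenced is not named, and no rescue with PRMT6 was sequenced. The question asked of these genes was whether their RNA differed between cells with and without PRMT6 knockdown.

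Receptor tyrosine kinases are membrane proteins that act in pairs. When a ligand binds outside the cell, the paired receptors phosphorylate each other inside it, and so recruit adaptors that switch on the RAS-MAPK and PI3K-AKT pathways. EGFR is the receptor most often amplified in glioblastoma, PDGFRA is amplified in a smaller share of tumours, and MET is activated by the ligand HGF. PDGFRB is typical of mesenchymal cells and pericytes, IGF1R and INSR bind insulin-like growth factors and insulin, and DDR1 and DDR2 are bound by collagen rather than by a soluble growth factor. ERBB2 has no known ligand of its own and ERBB3 has a kinase domain of very low activity, so both signal by pairing with other ERBB receptors.

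The counts of a library summed to between 56388161 and 75887696 in NC and between 61805330 and 67630740 in shPRMT6. Values are given as CPM (counts relative to the TMM-scaled library size of edgeR), which compares libraries, or as the deposited FPKM (fragments relative to transcript length and library size), which also allows genes to be compared. Where 3 values of a group are listed, they stand in the order of its replicates 1, 2 and 3. Of all genes, 18106 passed edgeR's filter on low counts and were tested by its quasi-likelihood test with Benjamini-Hochberg adjustment, and a gene is called where the adjusted p is under 0.05. PRMT6, the targeted gene, had 9.33, 7.97 and 7.19 CPM in the NC libraries and 3.57, 4.58 and 5.24 CPM in the shPRMT6 libraries. Its log2 fold change was -0.87 (SE 0.187, adjusted p = 0.0225 by edgeR), and its call was lost without NC replicate 1 (-0.77, adjusted p = 0.0613 by edgeR), without shPRMT6 replicate 1 (-0.73, adjusted p = 0.0588) and without shPRMT6 replicate 2 (-0.89, adjusted p = 0.0713). Markers of U87 and mesenchymal glioma were abundant, with a summed level of 20115 to 21030 CPM in NC and 16120 to 16854 CPM in shPRMT6, with VIM, FN1 and TNC among the highest. CDKN2A and CDKN2B, which are deleted in U87, had fewer than 0.1 CPM in every library. The astrocyte marker GFAP stayed under 1 CPM, and AQP4, ALDH1L1, MOG, MAG, AIF1, CX3CR1 and KRT5, which define astrocytes, oligodendrocytes, microglia and epithelia, had no counts at all. Other markers of these cells were measured: the astrocyte list summed to 19.2 to 42.7 CPM in NC and 21.2 to 35.9 CPM in shPRMT6, most of it SLC1A3, and the microglia and immune list to 10.8 to 14.3 CPM and 12.5 to 13.5 CPM, nearly all of it CSF1R. The neuron list summed to 35.5 to 36.7 CPM in NC and 31.5 to 34.5 CPM in shPRMT6, and the oligodendrocyte list to 2.86 to 6.34 CPM and 5.39 to 6.47 CPM. Endothelial and pericyte markers summed to 4.21 to 5.35 CPM in NC and 7.32 to 8.69 CPM in shPRMT6. Epithelial markers summed to 6.40 to 7.39 CPM in NC and 2.58 to 4.40 CPM in shPRMT6. The ranges of the groups did not overlap in either sum, nor in those of the neuron list and of the U87 and mesenchymal glioma list. Of the 8 genes of the U87 and mesenchymal glioma list, 3 were called lower and 1 higher, which is 50% against 18.6% of all genes tested. The part of these lists in the values of the receptors was not tested. In bulk RNA, fewer cells of a kind and less RNA per cell cannot be told apart.

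The upstream sequences of EGFR, MET and DDR2 are shown first, since these receptors were, respectively, the only one called, the most abundant one, and the one that stood apart in a single library. Each is the stretch of 250 bases before the RefSeq start nearest to the start of the gene model, on build GRCh38.p14 and on the plus strand. That start lies 4 bases from the start of the gene model for EGFR, 194 for MET and 510 for DDR2. Capitals mark the core of the GC box (GGGCGG or, on the other strand, CCGCCC), a sequence bound by SP1-like factors.
EGFR, chr7:55018767-55019016: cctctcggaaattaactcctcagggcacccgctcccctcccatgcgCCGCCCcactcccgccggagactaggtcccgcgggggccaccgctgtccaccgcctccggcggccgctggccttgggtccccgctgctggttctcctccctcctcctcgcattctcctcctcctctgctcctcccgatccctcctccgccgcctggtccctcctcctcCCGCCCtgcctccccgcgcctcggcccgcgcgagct
MET, chr7:116671946-116672195: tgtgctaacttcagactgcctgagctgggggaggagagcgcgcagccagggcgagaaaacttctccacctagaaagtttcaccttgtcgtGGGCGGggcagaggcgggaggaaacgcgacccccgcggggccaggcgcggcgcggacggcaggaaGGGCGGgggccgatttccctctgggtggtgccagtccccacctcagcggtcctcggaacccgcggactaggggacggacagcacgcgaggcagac
DDR2, chr1:162630613-162630862: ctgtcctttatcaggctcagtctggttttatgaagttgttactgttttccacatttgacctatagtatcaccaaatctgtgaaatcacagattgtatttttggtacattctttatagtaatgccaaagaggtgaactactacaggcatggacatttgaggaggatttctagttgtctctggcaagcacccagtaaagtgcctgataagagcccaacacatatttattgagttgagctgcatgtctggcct
The stretches of EGFR and MET hold 2 GC box cores each, and the stretch of DDR2 holds none but has 1 match to the TATA box letters TATAAA, read on both strands. Of the 10 receptors 9 were matched to a window in the RefSeq table, and the window of ERBB3 was not analysed here. Over the full windows, which run from 250 bases before to 50 bases after the start, GC content was 75.3% for EGFR, 69.3% for MET and 41.0% for DDR2, against a median of 58.7% over 35116 promoters of the same length. The EGFR window holds 33 CpG dinucleotides, the MET window 30 and the DDR2 window 0, against a median of 14. The 9 receptors have 20 windows in all, and for each only the window nearest the start of its gene model was counted. That of DDR1 lies 4549 bases away. The shares over all promoters count every window. A GC box core was present in the nearest windows of 5 of the 9 receptors and in 45.0% of all promoters. TATAAA was present in those of 1 of the 9 and in 11.5% of all promoters. The letters CCAAT, on either strand, were present in those of 3 of the 9 and in 34.6% of all promoters. Windows that were not counted hold further matches, among them GC box cores for PDGFRA and DDR1. These are matches of letters in a window and say nothing of binding.

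The 10 receptors spanned a wide range of RNA levels in U87. In NC libraries the order by mean FPKM was MET, EGFR, DDR1, DDR2, PDGFRB, INSR, IGF1R, ERBB2, PDGFRA and ERBB3. MET lay between 27.6 and 32.5 FPKM in NC and EGFR between 12.6 and 15.0 FPKM. DDR1 (3.72 to 5.68 FPKM), DDR2 (2.96 to 3.99 FPKM) and PDGFRB (2.67 to 3.12 FPKM) followed, and the ranges of DDR1 and DDR2 overlapped, as did those of DDR2 and PDGFRB, though PDGFRB lay below DDR2 in every library. The order of DDR1 and DDR2 is not resolved. INSR (2.18 to 2.49 FPKM) and IGF1R (1.27 to 1.51 FPKM) came next, each below its neighbour in every library. ERBB2 (0.326 to 0.445 FPKM), PDGFRA (0.124 to 0.195 FPKM) and ERBB3 (0.00902 to 0.0330 FPKM) were the lowest, and no ranges overlapped among these 3. In shPRMT6 the order of the means was the same except that DDR2 stood before DDR1, which rested on a single library with 14.9 FPKM of DDR2. Dividing CPM by the annotated exon length in place of using FPKM gave the same order of all 10 receptors in NC.

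**Figure D1:**
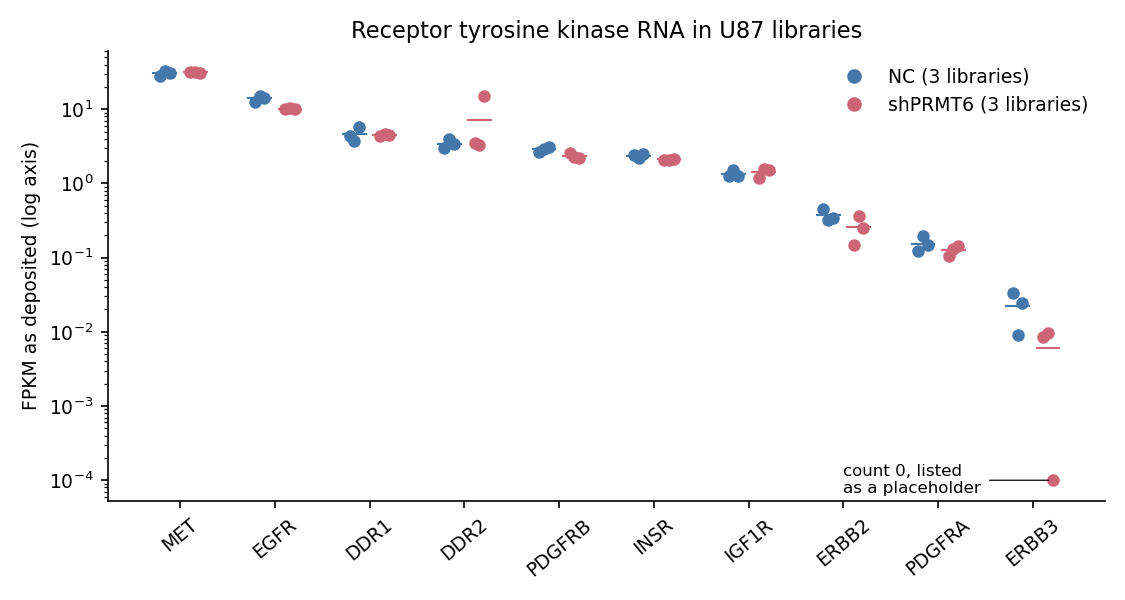
Deposited FPKM of the 10 receptors in each library, on a log axis, with a point for each of 3 NC (blue) and 3 shPRMT6 (red) libraries and a line at each group's mean. MET and EGFR lie above the rest, ERBB3 lies lowest with 1 library at a count of 0, which the table lists as 0.0001, and 1 shPRMT6 library of DDR2 stands at 14.9 FPKM.

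Of the 9 receptors tested between groups, EGFR alone was called, and it was lower in shPRMT6. This is 11.1% of the tested receptors, where 18.6% of all genes tested were called, made up of 9.06% lower and 9.51% higher in shPRMT6. The share of receptors called lower was thus near the background in that direction. Of the 9, 6 had a lower and 3 a higher log2 fold change, with a median of -0.17 against -0.01 over all genes tested. At the threshold of the study's methods, an absolute log2 fold change over 1 with an unadjusted p under 0.05, no receptor was called, where 5.92% of all genes were. The 3 shPRMT6 libraries lay wholly below the 3 NC libraries for EGFR, PDGFRB and INSR, where 19.9% of all genes had groups apart in that direction and 20.3% in the other. With 3 libraries against 3, an exact permutation test (two-sided) cannot give a p below 0.1, which is its value for each of these 3 receptors.

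**Figure D2:**
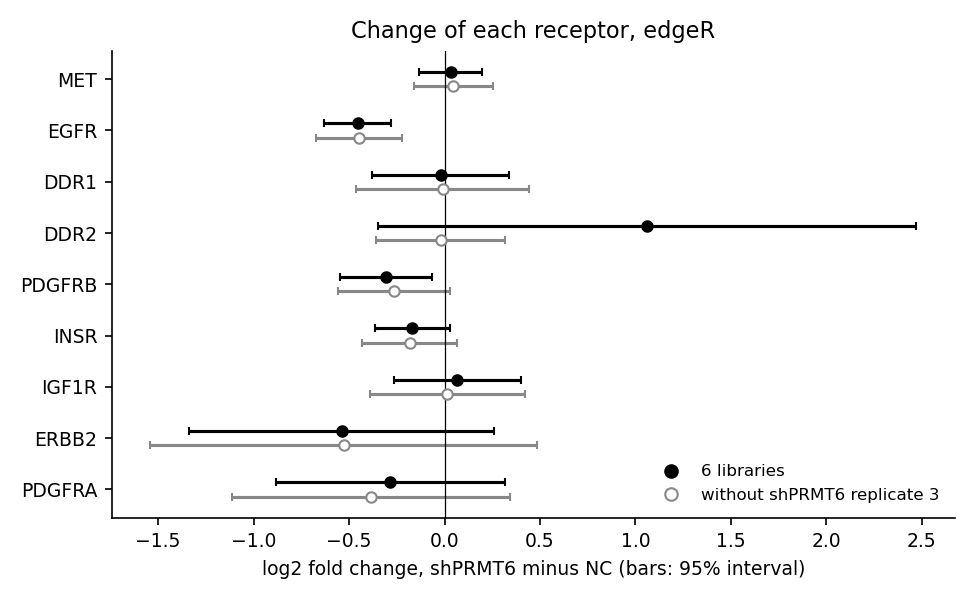
Log2 fold change of each tested receptor, shPRMT6 minus NC, with its 95% interval from edgeR, over 6 libraries (filled) and without shPRMT6 replicate 3 (open). The EGFR interval lies below 0 both ways (estimates -0.46 and -0.45), and DDR2 moves from 1.06 to -0.02 when that library is left out.

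EGFR (ENSG00000146648), the receptor of EGF, TGFA, HBEGF and EREG, is at 55019021 to 55211628 of chromosome 7 (GRCh38, plus strand). Its level was 189, 223 and 209.9 CPM in the NC libraries and 148, 155 and 150.05 CPM in the shPRMT6 libraries. Every shPRMT6 library was lower than every NC library, and the shPRMT6 libraries lay close together. The mean fell from 207 ± 16.8 CPM to 151 ± 3.49 CPM (SD, n = 3 in each group), or to 72.9% of it. This is a log2 fold change of -0.46 (SE 0.0726, 95% interval -0.63 to -0.28, adjusted p = 0.00812 by edgeR with Benjamini-Hochberg adjustment). It stayed past an adjusted p of 0.05 in each of 15 other fits with edgeR, DESeq2 or limma, which scaled, filtered or blocked the libraries otherwise or left 1 out, with values from -0.52 to -0.40 and a highest adjusted p of 0.0404. Each library held at least 9440 EGFR counts. EGFR-AS1, an antisense RNA that overlaps 1.49% of the EGFR exon bases on the other strand, had at most 19 counts in a library. Counts per gene do not separate EGFR transcripts, so a deletion variant could not be told from the full-length form.

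ERBB2 (ENSG00000141736, chromosome 17 of GRCh38, 39687914 to 39730426, plus strand), the preferred partner of the other ERBB receptors, was a low gene in U87. It had 5.56, 4.06 and 4.18 CPM in the NC libraries and 1.84, 4.53 and 3.13 CPM in the shPRMT6 libraries. The groups overlapped, since shPRMT6 replicate 2 lay above 2 NC libraries. The log2 fold change of -0.54 (SE 0.334, adjusted p = 0.319 by edgeR) was not past the threshold, and its interval of -1.34 to 0.26 spans falls larger than that of EGFR as well as no fall. Leaving out shPRMT6 replicate 2 gave -0.89 and leaving out shPRMT6 replicate 1 gave -0.26, and ERBB2 was called in neither. Exons of PGAP3 (194 bases) and MIEN1 (571 bases) overlap ERBB2 on the other strand, and it is not stated whether strand was used in counting. PGAP3 had 7.58, 6.46 and 9.50 CPM in NC and 5.12, 4.34 and 4.30 CPM in shPRMT6, and MIEN1 lay between 21.1 and 24.2 CPM in all 6 libraries, and their part in the ERBB2 counts was not tested.

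ERBB3 (ENSG00000065361, chromosome 12, 56076799 to 56103505, plus strand), the neuregulin receptor with a weak kinase, was near absent. It had 20, 8 and 17 counts in NC, against 6, 7 and 0 in shPRMT6. It was the only receptor under the filter on low counts, so no test was made of its difference between groups. ERBB4, the remaining member of the family, had 0 counts in 4 libraries and 4 and 8 counts in the others. EGFR was thus the only ERBB receptor with more than 6 CPM in any library.

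Several ligands of the ERBB receptors were lower in shPRMT6. Of 11 ligand genes 8 were tested, and 4 were called lower and 1 higher in shPRMT6. This is 62.5% of those tested, against 18.6% of all genes tested. The median log2 fold change of the list was -0.31. HBEGF, a ligand of EGFR that is shed from the membrane, had 51.1, 49.8 and 49.4 CPM in NC and 29.5, 27.6 and 28.7 CPM in the shPRMT6 libraries, a log2 fold change of -0.81 (SE 0.0673, adjusted p = 0.00114 by edgeR). TGFA, another EGFR ligand, had 28.0, 25.4 and 25.6 CPM in NC and 17.6, 16.6 and 17.0 CPM in shPRMT6, a log2 fold change of -0.62 (SE 0.0841, adjusted p = 0.00473 by edgeR). EREG, the most abundant ligand of the list, had 687, 823 and 754 CPM in NC and 526, 536 and 555 CPM in shPRMT6, a log2 fold change of -0.48 (SE 0.0742, adjusted p = 0.00713 by edgeR). For these 3 ligands every shPRMT6 library lay below every NC library, and the calls held in all 6 fits that left out 1 library. NRG1, a neuregulin that binds ERBB3 and ERBB4, was lower as well, with 78.0, 105 and 86.7 CPM in NC and 30.9, 51.8 and 49.1 CPM in shPRMT6 (log2 fold change -1.04, adjusted p = 0.0197 by edgeR). It was named after its values were seen, and its call was lost without NC replicate 2 (-0.91, adjusted p = 0.0508 by edgeR) and without NC replicate 3 (-1.06, adjusted p = 0.0585). NRG2, also a neuregulin, rose from 3.76 to 4.70 CPM in NC to 6.96 to 8.25 CPM in shPRMT6 (log2 fold change 0.86, adjusted p = 0.00971 by edgeR). EGF itself stayed under 1 CPM (log2 fold change -0.13, adjusted p = 0.875 by edgeR, its sign changing with the library left out), and AREG had 0 counts in 3 libraries and at most 27.

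Many of these ligands are cut from the membrane by metalloproteases. Of 10 sheddases and their regulators, all tested, 2 were called, both lower in shPRMT6, which is 20% of them against 18.6% of all genes tested. ADAM8, a metalloprotease, lay at 127, 117 and 132 CPM in NC and at 67.2, 66.9 and 59.7 CPM in shPRMT6 (log2 fold change -0.95, adjusted p = 0.00114 by edgeR). RHBDF2, the rhomboid-like protein that brings ADAM17 to the surface, lay at 32.5 to 37.8 CPM in NC and 27.8 to 28.3 CPM in shPRMT6 (log2 fold change -0.33, adjusted p = 0.0366 by edgeR), a call that held in 1 of the 6 fits that left out a library, the one without NC replicate 2. ADAM17 and ADAM10, named after their values were seen, were not called. ADAM17 lay at 55.7, 57.3 and 61.9 CPM in NC and at 67.1, 64.7 and 67.7 CPM in shPRMT6 (log2 fold change 0.19, adjusted p = 0.0995 by edgeR). ADAM10 had a log2 fold change of -0.04 (adjusted p = 0.791 by edgeR). The list as a whole had a median log2 fold change of -0.06, with 6 genes lower and 4 higher.

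**Figure D3:**
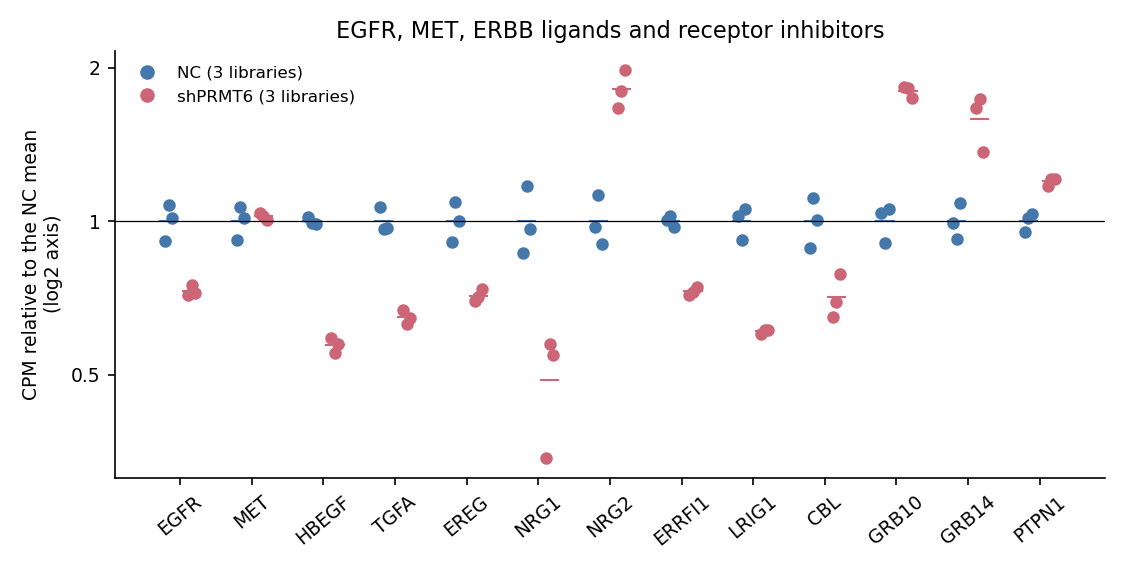
CPM of EGFR, MET, 5 ERBB ligands and 6 inhibitors or regulators of receptors in each library, divided by the NC mean of the gene, on a log2 axis, with blue points for NC, red for shPRMT6 and a line at each group's mean. All shPRMT6 points of EGFR, HBEGF, TGFA, EREG, NRG1, ERRFI1, LRIG1 and CBL lie below the NC points, those of NRG2, GRB10, GRB14 and PTPN1 lie above them, and those of MET overlap them.

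MET (ENSG00000105976, chromosome 7, 116672390 to 116798386, plus strand), the HGF receptor, was the most abundant of the 10 and did not pass the test. It had 239.8, 279 and 266 CPM in the NC libraries and 272, 268 and 263 CPM in the shPRMT6 libraries. The groups overlapped, with NC holding both the lowest and the highest library. The log2 fold change of 0.03 (SE 0.0685, adjusted p = 0.790 by edgeR) had a 95% interval of -0.13 to 0.20, which does not reach the EGFR estimate. HGF, its ligand, was present in the same libraries, at 51.6, 63.7 and 59.2 CPM in NC and 60.7, 62.1 and 70.7 CPM in shPRMT6 (log2 fold change 0.15, adjusted p = 0.373 by edgeR). Of 7 genes in the list of HGF and its activation, 4 were tested and 0 called by edgeR (0 also by DESeq2, and 0 at an unadjusted p under 0.05). Over all genes tested 18.6% were called, and 4 genes are too few to set against that share. HGFAC and HPN, proteases that activate HGF, had no counts.

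Ratios of receptors within a library remove any factor that scales all genes of that library alike. The log2 ratio of EGFR to MET counts was -0.342, -0.329 and -0.339 in the NC libraries and -0.874, -0.788 and -0.812 in the shPRMT6 libraries. The groups did not overlap, and the SD was 0.00700 in NC and 0.0443 in shPRMT6. The mean difference was -0.49 on the log2 scale, with p = 0.1 by the exact permutation test, again the smallest possible, and 0.48 after Benjamini-Hochberg adjustment over the 8 ratios computed. The other 7 ratios overlapped between groups. EGFR to PDGFRB gave a difference of -0.14 (3.08 ± 0.0985 in NC and 2.93 ± 0.142 in shPRMT6, SD, n = 3, exact permutation p = 0.3, adjusted p = 0.48), and IGF1R to INSR gave 0.23 (exact permutation p = 0.2, adjusted p = 0.48).

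Neither PDGF receptor was called. PDGFRA (ENSG00000134853, chromosome 4, 54229097 to 54298247, plus strand), a marker of oligodendrocyte precursors and of proneural glioma, had 1.43, 2.22 and 1.65 CPM in the NC libraries and 1.21, 1.49 and 1.65 CPM in the shPRMT6 libraries. The groups overlapped and the log2 fold change was -0.28 (SE 0.251, 95% interval -0.89 to 0.32, adjusted p = 0.491 by edgeR). Without NC replicate 2 it was -0.085 and without NC replicate 1 it was -0.42, and PDGFRA was called in neither. A readthrough gene on the same strand, AC058822.1, shares 14.7% of the 75-base stretches of PDGFRA and had at most 2 counts in a library. How reads that fall in both genes were counted is not stated. Those 2 counts therefore do not show whether such reads were kept for PDGFRA, and this was not tested. PDGFRB (ENSG00000113721, chromosome 5, 150113837 to 150155872, minus strand) had 22.9, 24.4 and 26.2 CPM in NC and 21.7, 19.1 and 18.6 CPM in shPRMT6. Every shPRMT6 library was below every NC library. The log2 fold change was -0.31 (SE 0.101), with an unadjusted p of 0.0199 and an adjusted p of 0.0828 by edgeR, which is not past the threshold. DESeq2 gave -0.30 with an adjusted p of 0.0133, so the call of PDGFRB depends on the tool. Over 15 other fits it was called in 1, with adjusted p between 0.0133 and 0.225.

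Of 4 PDGF ligand genes 3 were tested and 0 called by edgeR (0 also by DESeq2, and 0 at an unadjusted p under 0.05). Over all genes tested 18.6% were called, and 3 genes are too few to set against that share. PDGFC was the most abundant, at 60.4 to 64.1 CPM in NC and 64.4 to 72.4 CPM in shPRMT6 (log2 fold change 0.12, adjusted p = 0.269 by edgeR). PDGFA lay at 12.2 to 14.6 CPM in NC and 11.9 to 15.1 CPM in shPRMT6 (log2 fold change 0.03, adjusted p = 0.885 by edgeR). PDGFB stayed under 0.3 CPM (log2 fold change 0.65, adjusted p = 0.467 by edgeR), and PDGFD had counts in 1 library, 4 in all.

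IGF1R (ENSG00000140443, chromosome 15, 98648539 to 98964530, plus strand) and INSR (ENSG00000171105, chromosome 19, 7112255 to 7294034, minus strand), which can form hybrid receptors, were not called. IGF1R had 21.4, 25.1 and 20.9 CPM in the NC libraries and 19.4, 25.8 and 25.3 CPM in the shPRMT6 libraries, with groups that overlapped and a log2 fold change of 0.07 (SE 0.140, 95% interval -0.27 to 0.40, adjusted p = 0.787 by edgeR). INSR had 31.1, 28.1 and 31.8 CPM in NC and 26.6, 26.7 and 27.6 CPM in shPRMT6. Its groups did not overlap, but the log2 fold change of -0.17 (SE 0.0815, 95% interval -0.36 to 0.03, adjusted p = 0.207 by edgeR) was not past the threshold. INS and IGF1 had no counts in any library, and IGF2 had under 0.4 CPM (log2 fold change -0.61, adjusted p = 0.819 by edgeR). Of 8 IGF binding proteins and IGF2R, all tested, 1 was called (12.5%, against 18.6% of all genes tested). This was IGFBP1, a secreted IGF binding protein, at 14.3, 12.4 and 11.9 CPM in NC and 9.71, 8.56 and 8.73 CPM in shPRMT6 (log2 fold change -0.51, adjusted p = 0.0282 by edgeR). The IGFBP1 call was lost in each of the 6 fits that left out 1 library, with values from -0.57 to -0.43 and adjusted p by edgeR from 0.0507 to 0.101.

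DDR1 (ENSG00000204580, chromosome 6, 30876421 to 30900156, plus strand), the collagen receptor typical of epithelia, had 47.2, 40.5 and 61.1 CPM in the NC libraries and 47.4, 50.9 and 48.4 CPM in the shPRMT6 libraries. NC held both the lowest and the highest value. The log2 fold change was -0.02 (SE 0.150, 95% interval -0.38 to 0.34, adjusted p = 0.944 by edgeR), and it was 0.16 without NC replicate 3, again not past the threshold.

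DDR2 (ENSG00000162733, chromosome 1, 162631373 to 162787400, plus strand), the receptor of fibrillar collagen typical of mesenchymal cells, stood apart in 1 library. It had 2207, 4004 and 2764 counts in NC, against 2912, 2692 and 13212 in shPRMT6. In CPM these are 39.5, 52.7 and 44.3 in NC and 45.7, 43.7 and 195 in shPRMT6. The first 5 values overlap, and shPRMT6 replicate 3 lies 3.70 times above the highest of them. The log2 fold change over all libraries was 1.06 (SE 0.590, 95% interval -0.35 to 2.47, adjusted p = 0.267 by edgeR). Without that library it was -0.02 (SE 0.137, 95% interval -0.36 to 0.32, adjusted p = 0.949 by edgeR). The mean and SD of the shPRMT6 group, 94.8 ± 86.8 CPM (SD, n = 3), describe none of its libraries.

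Such single high values were rare among well expressed genes. Among the 10051 genes tested with a mean log2 CPM over 3, DDR2 and ZNF24 were the 2 at least 3 times higher in shPRMT6 replicate 3 than in every other library, and the other 5 libraries had 0 to 3 such genes each. HSD17B7, which neighbours DDR2, had 442 to 568 counts in all 6 libraries, 565 of them in shPRMT6 replicate 3. UAP1, on the other side, had 3657 to 5251 counts, 4892 of them in that library. These and the other neighbours shown were chosen after the DDR2 values were seen. DDR2 shares no exon bases with another gene of the annotation and no 75-base stretch with another transcript. The source of the high count in this library was not tested.

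**Figure D4:**
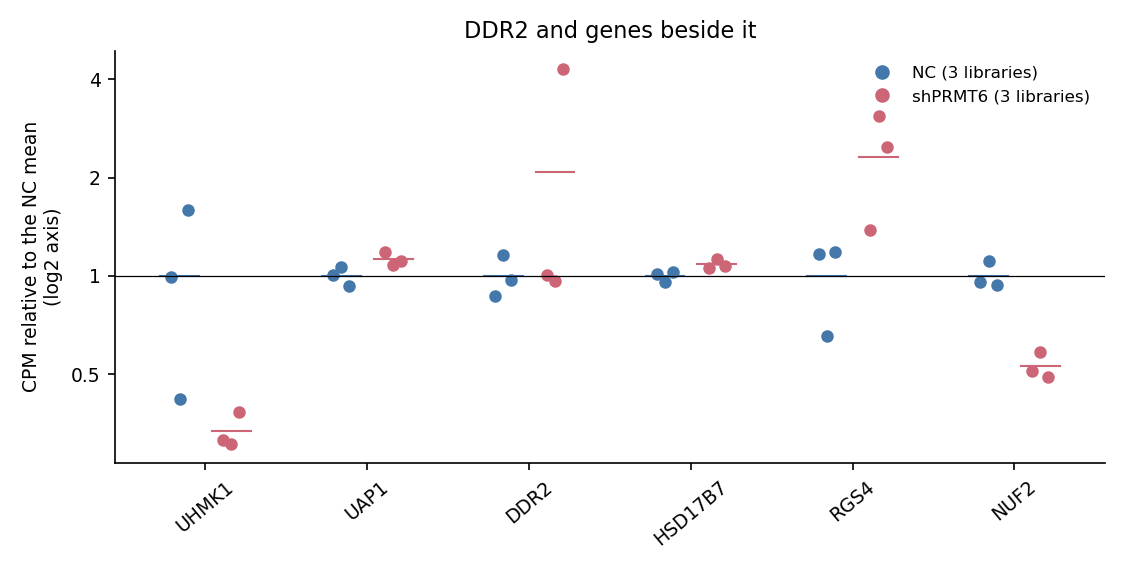
CPM of DDR2 and of 5 genes near it on the chromosome in each library, divided by the NC mean of the gene, on a log2 axis, with blue points for NC, red for shPRMT6 and a line at each group's mean. DDR2 of shPRMT6 replicate 3 (195 CPM) stands above the other 5 libraries (39.5 to 52.7 CPM), while UAP1 and HSD17B7 show no such point. The shPRMT6 points lie below the NC points for UHMK1 and NUF2, and above them for UAP1, HSD17B7 and RGS4. UHMK1 varied widely in NC (98.0, 41.2 and 156 CPM).

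The collagens that bind DDR1 and DDR2 rose where they moved. Of 9 collagen genes 6 were tested, and 3 were called, all higher in shPRMT6. That is 50% of those tested, where 18.6% of all genes tested were called. The median log2 fold change of the list was 0.29. COL5A1, a fibrillar collagen chain, went from 162, 181 and 177 CPM in NC to 348, 344 and 360 CPM in shPRMT6 (log2 fold change 1.02, SE 0.0612, adjusted p = 0.000472 by edgeR). COL5A2, its partner chain, went from 59.0, 94.6 and 93.7 CPM to 138, 163 and 176 CPM (log2 fold change 0.95, adjusted p = 0.0195 by edgeR), and its call was lost without shPRMT6 replicate 2 (0.93, adjusted p = 0.0646 by edgeR) or 3 (0.87, adjusted p = 0.0664). COL1A2, a chain of type I collagen, went from 1057, 1070.4 and 1084 CPM to 1346, 1348 and 1351 CPM (log2 fold change 0.33, adjusted p = 0.00342 by edgeR). COL1A1, the other chain of type I collagen, which was named after its values were seen, had 662 to 742 CPM in NC and 742 to 754 CPM in shPRMT6 (log2 fold change 0.07, adjusted p = 0.479 by edgeR).

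Downstream of the receptors, 5 of 17 tested adaptors and docking proteins were called, 2 lower and 3 higher in shPRMT6. Their median log2 fold change was -0.04, and the share called was 29.4%, against 18.6% of all genes tested. SOS2, a RAS exchange factor, fell from 38.7, 48.6 and 40.4 CPM to 22.7, 26.4 and 21.2 CPM (log2 fold change -0.86, adjusted p = 0.00638 by edgeR) and was called in all 6 fits that left out a library. CRKL (-0.29, adjusted p = 0.0124 by edgeR), CRK (0.29, adjusted p = 0.0142), SRC (0.33, adjusted p = 0.0151) and NCK1 (0.34, adjusted p = 0.0234) changed by less. Their calls were held in 3, 2, 3 and 1 of those 6 fits, and none of these 4 calls held without shPRMT6 replicate 1, 2 or 3. GRB2, the adaptor that links receptors to SOS, was named after its values were seen, since its NC libraries lay apart at 47.1, 161 and 45.9 CPM against 154 to 173 CPM in shPRMT6 (log2 fold change 0.96, adjusted p = 0.228 by edgeR). Without NC replicate 2 its log2 fold change was 1.82 (adjusted p = 0.000955 by edgeR), so a single control library decided the GRB2 call.

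In the PI3K-AKT arm all 14 genes were tested, 1 was called lower and 4 higher, and the median log2 fold change was -0.21. The share called was 35.7%, against 18.6% of all genes tested. INPP4B, a phosphatase of PI3K products, rose from 4.31, 6.55 and 5.69 CPM to 11.3, 11.9 and 11.4 CPM (log2 fold change 1.07, adjusted p = 0.00799 by edgeR). PIK3CA, a catalytic subunit of PI3K, rose from 39.2, 44.9 and 44.9 CPM to 57.6, 63.6 and 62.4 CPM (log2 fold change 0.51, adjusted p = 0.00886 by edgeR), and PHLPP2, a phosphatase of AKT, fell from 25.7, 27.2 and 25.7 CPM to 17.5, 18.6 and 19.2 CPM (log2 fold change -0.51, adjusted p = 0.00856 by edgeR). These 3 calls held in all 6 fits that left out a library. PIK3CB, another catalytic subunit, named after its values were seen, had a log2 fold change of 0.46 (adjusted p = 0.0374 by edgeR), and its call held in 1 of those 6 fits, the one without NC replicate 2. PIK3R2, a regulatory subunit also named after its values were seen, had 3993 to 5089 counts in NC and 2816, 2418 and 100 counts in the shPRMT6 libraries, and was not called (adjusted p = 0.378 by edgeR). In shPRMT6 replicate 3 an overlapping readthrough gene, ENSG00000268173, had 2991 counts against 0 to 8 in the other libraries, and whether reads passed from PIK3R2 to it in that library was not tested. Without that library the log2 fold change of PIK3R2 was -0.81 (adjusted p = 0.0418 by edgeR).

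Genes that restrain or degrade the receptors were called in both directions, 4 lower and 3 higher of 18 tested, with a median log2 fold change of -0.03. The share called was 38.9%, against 18.6% of all genes tested. ERRFI1, which binds and inhibits the EGFR kinase, fell from 2206, 2246 and 2134 CPM to 1570.2, 1593 and 1631 CPM (log2 fold change -0.46, SE 0.0439, adjusted p = 0.00164 by edgeR). LRIG1, a membrane protein that lowers ERBB receptors, fell from 362, 325 and 373 CPM to 212, 216 and 217 CPM (log2 fold change -0.72, adjusted p = 0.00153 by edgeR). HGS, part of the complex that sorts receptors for lysosomal degradation, fell from 157, 146 and 158 CPM to 91.2, 89.9 and 79.4 CPM (log2 fold change -0.82, adjusted p = 0.00147 by edgeR). GRB10, an adaptor that inhibits the insulin and IGF1 receptors, rose from 120.1, 105 and 122 CPM to 213, 211 and 202 CPM (log2 fold change 0.85, adjusted p = 0.00126 by edgeR), and its relative GRB14 rose from 33.0, 30.8 and 36.1 CPM to 55.5, 57.8 and 45.6 CPM (log2 fold change 0.67, adjusted p = 0.0104 by edgeR). These 5 were called in all 6 fits that left out a library. PTPN1, a phosphatase of INSR and EGFR (0.26, adjusted p = 0.0240 by edgeR), held in 1 of them, the one without NC replicate 2, and CBL, the ubiquitin ligase of EGFR and MET, named after its values were seen (-0.49, adjusted p = 0.0291), held in 2, those without NC replicate 1 or shPRMT6 replicate 3.

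Among 48 other receptor tyrosine kinases 28 were tested, 3 were called lower and 4 higher in shPRMT6, and the median log2 fold change was 0.10. In all, 25% of those tested were called, against 18.6% of all genes tested. AXL, a receptor of the TAM family, went from 373, 355 and 366 CPM to 170.0, 178 and 179 CPM (log2 fold change -1.05, SE 0.0518, adjusted p = 0.000264 by edgeR). EPHB4 (-0.63, adjusted p = 0.0172 by edgeR) and FGFR1 (-0.32, adjusted p = 0.0388) were the others lower, with the EPHB4 call lost without shPRMT6 replicate 1 or 3 and the FGFR1 call held in 1 of 6 fits, the one without shPRMT6 replicate 1. EPHB2, an ephrin receptor, rose from 23.4, 32.2 and 27.6 CPM to 72.0, 77.0 and 75.8 CPM (log2 fold change 1.43, SE 0.122, adjusted p = 0.00118 by edgeR), and EPHA5 rose from 4.49, 6.65 and 4.58 CPM to 10.5, 11.3 and 10.5 CPM (log2 fold change 1.03, adjusted p = 0.0109 by edgeR). TEK, an angiopoietin receptor (0.60, adjusted p = 0.0288 by edgeR), and ROR1, named after its values were seen (1.20, adjusted p = 0.0464), held in 1 and 0 of the 6 fits that left out a library. The EGFR change of -0.46 was smaller than those of AXL, EPHB2 and EPHA5, though whether it differs from them was not tested.

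**Figure D5:**
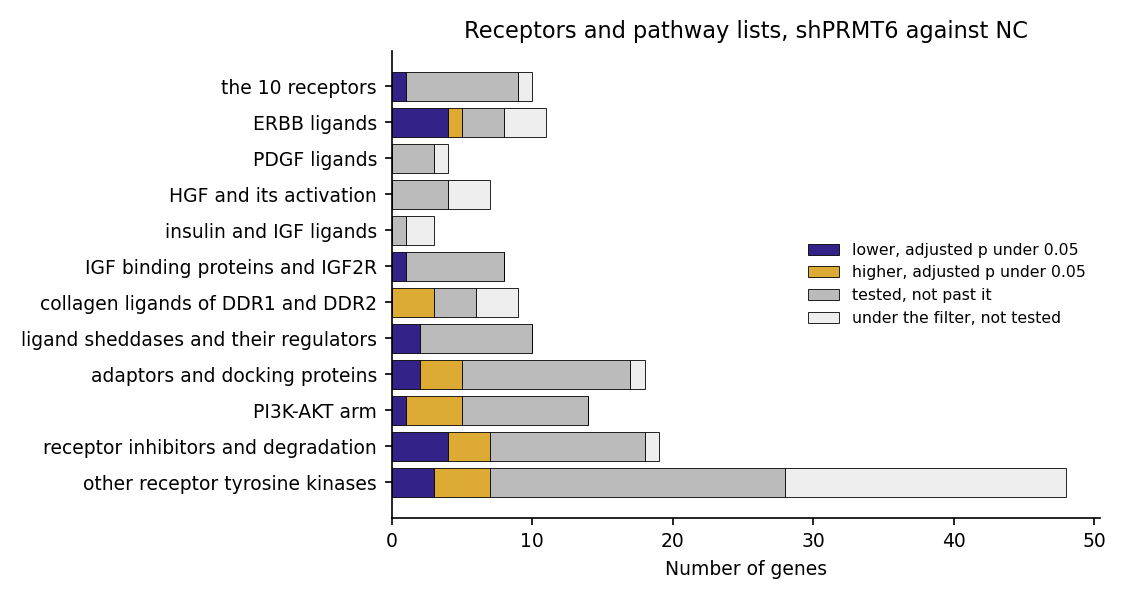
Number of genes in the 10 receptors and in each of 11 related lists that were called lower (dark blue) or higher (yellow) in shPRMT6, tested without a call (grey) or left under the filter on low counts (pale). The receptors hold 1 called gene of 9 tested, the ERBB ligands 5 of 8, and the PDGF, HGF and insulin lists none of 3, 4 and 1. Over all genes tested, 18.6% were called.

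Over the 11 lists together, 35 of 117 tested genes were called, 17 lower and 18 higher, which is 29.9% against 18.6% of all genes tested. The lists were chosen with earlier results of these data known, so this share is a description of these genes.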

How the data were processed

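RNA of 3 NC and 3 shPRMT6 U87 samples was sequenced, from what the methods call independent replicates. The authors deposited raw counts per gene, and FPKM values, with 0.0001 in place of 0. The submitters' processing notes name HISAT2, HTSeq 0.13.5 and GRCh38, and use of strand and the annotation release are not given in the sources used here. Counts were tested with edgeR 4.0.16 in R 4.3.3 (TMM, quasi-likelihood test, its filter on low counts, Benjamini-Hochberg adjustment, all 6 libraries, no block). The total counts were 56388161 to 75887696 per library. No 2 libraries of a group were duplicates (chi-square of their counts 48.2 to 78.4 times its degrees of freedom).

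The receptors and the related gene lists were chosen with earlier results of these data known. The 10 receptors, PRMT6, named ligands and ERBB4 were named whatever their value, and up to 3 genes per list and direction with the smallest p among those called. Markers were named by abundance. The values of 2 genes under these rules are not reported here. Other genes are marked in the text as chosen after their values were seen. Receptor ratios used log2 of counts plus 0.5. Gene models and overlaps came from GENCODE 29, which holds 58394 of the 60612 identifiers, and promoters from RefSeq on GRCh38.p14, read with Python 3.11.15.

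Alternatives were DESeq2 1.42.0, other scaling or filters (no fewer than 10 counts in all libraries, or 1 in any), a replicate block, limma 3.58.1 on log2(FPKM + 1) or log2(FPKM + 0.1) with or without a mean FPKM of at least 1, other thresholds, and each library left out. On simulated counts, 200 of 17767 genes, each with a mean of at least 200 counts, were changed by 2 on the log2 scale. With the median dispersion given to all genes, edgeR recovered 100% with 5.21% false calls and DESeq2 100% with 13.4%. With a dispersion of its own for each of 17481 genes, edgeR recovered 97% with 7.62% false calls and DESeq2 99% with 31.25%. Smaller changes, such as that of EGFR, were not simulated, so their recovery was not tested.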

Additional observations from a re-analysis of the deposited data

How the results depend on the processing

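EGFR was called by each alternative except the threshold of an absolute log2 fold change over 1, since its value is -0.46. The receptors called numbered 2 with DESeq2, where PDGFRB (-0.30) joined EGFR, and 0 at that threshold. All genes called numbered 5782 with DESeq2, 1320 at an adjusted p under 0.01, 1072 at the fold threshold, 1858 with a replicate block, and 1755 to 3183 with each library left out. The called genes of the related lists numbered 55, 17, 9, 22 and 21 to 39 under the same settings. PRMT6 kept its direction but lost its call at an adjusted p under 0.01 and at the fold threshold (-0.87 in both), with a replicate block (-0.88, adjusted p = 0.0803 by edgeR), with limma on all genes with a count (-0.47, adjusted p = 0.0578), and in 3 of 6 fits that left out a library (range -1.0 to -0.73).

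Some values that were not called changed sign, while those of ERBB2, PDGFRA, PDGFRB and INSR stayed below 0 in every fit. With each library left out, MET ranged from -0.029 to 0.082, IGF1R from -0.0049 to 0.19, DDR1 from -0.15 to 0.16, DDR2 from -0.021 to 1.40, EGF from -0.35 to 0.18, PDGFA from -0.054 to 0.12 and IGF2 from -1.22 to 0.057. DDR1 was 0.0038 with limma on log2(FPKM + 1), with and without the filter, and 0.0079 on log2(FPKM + 0.1). The difference in the ratio of EGFR to ERBB2 ranged from -0.17 to 0.45, of PDGFRA to PDGFRB from -0.10 to 0.23 and of DDR1 to DDR2 from -1.09 to 0.020. Apart from DDR2, whose change rested on shPRMT6 replicate 3, the cause of these changes was not tested.

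Same-numbered libraries had correlations of -0.025, -0.017 and -0.030 in their deviations from the group means over 18106 genes. Libraries with different numbers had -0.019 to 0.045. No shared deviation by replicate number was seen, but this cannot show whether the samples were prepared in pairs, which is not stated. With the replicate block EGFR was -0.45 (adjusted p = 0.0294 by edgeR) and DDR2 was 0.67 (adjusted p = 0.447 by edgeR), and no other receptor gained a call. ERBB3, with 0 to 20 counts a library, was under the filter on low counts in the main fit. The intervals of ERBB2 and PDGFRA are wide, and the cause was not tested.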
